A study of Mus musculus with 6 samples.

Results

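The genes described here are 9 genes of retinoid binding, uptake and retinoic acid signalling, taken by symbol from a table of 24354 gene names in mouse choroid plexus (ChP), the epithelial tissue in the brain ventricles that makes cerebrospinal fluid. They were Rbp4, Stra6, Crabp1, Crabp2, Rdh10, Aldh1a1, Aldh1a2, Rara and Rxra, taken by name, with earlier results of these data known. All 9 were in the table and all 9 were above 0 in at least 1 sample. The values are FPKM, fragment counts divided by transcript length and by the mapped reads of the sample, which are per length, so levels of different genes can be set beside each other.

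The data were TRAP-seq profiles, in which RNA bound to tagged ribosomes is purified and sequenced. The mice of all samples carried the labelled genotype FoxJ1:cre x bacTRAP (EGFP:L10a), so that cells in which the Foxj1 promoter had driven Cre carried a green fluorescent ribosomal protein. No treatment was given, and every sample was labelled choroid plexus. The adult group held 3 samples from mice aged 60 days and the E16.5 group held 3 samples from embryos at embryonic day 16.5. By the study's methods a sample was a pool of 3 animals or 3 litters, while the design text gives 3 mice an age, so what separates the replicates is not settled here. If they were not separate animals, the p-values measure only the spread between these samples.

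Vitamin A travels in blood as retinol, bound to the carrier Rbp4 in a complex with transthyretin, and enters cells that carry the receptor Stra6. Inside the cell, retinol dehydrogenases such as Rdh10 oxidise retinol to retinaldehyde, and aldehyde dehydrogenases of the Aldh1a family turn retinaldehyde into retinoic acid. Retinoic acid is bound in the cytoplasm by Crabp1 and Crabp2 and acts in the nucleus through receptors such as Rara paired with Rxra, while enzymes of the Cyp26 family break it down.

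The libraries differed in depth and in scale. The step between low values put 1 read per kilobase at 0.114 to 0.324 FPKM in the adult samples and at 0.0636 to 0.0805 FPKM in the E16.5 samples, so the adult libraries were the shallower ones. Between 7599 and 11340 genes were above 0 in an adult sample and between 12761 and 13077 in an E16.5 sample. The single gene Mir6236 took 32.7% to 51.7% of the summed FPKM in the adult samples and 13.3% to 15.0% in the E16.5 samples. Among 11601 genes with a mean above 1 FPKM, the median log2 change from E16.5 to adult was −0.86, and 72.8% of these genes had a negative change. An exact 0 in this table is not evidence of absence. Of 83 ribosomal protein genes, which every cell uses, 24 were listed at 0 in every adult sample and 9 in every E16.5 sample. Ttr, the transthyretin gene and the best known product of this epithelium, was at 20922, 31302 and 29741 FPKM in the adult samples and listed at 0 in all 3 E16.5 samples. The other ChP epithelial markers were present at both ages, and the 12 listed markers summed to between 39920 and 54857 FPKM in the adult and between 5567 and 6185 FPKM at E16.5. Ttr and Enpp2 carried the adult sums, and the other 10 markers summed to 3692 to 4823 FPKM in the adult and to 5293 to 5943 FPKM at E16.5. Of the 12, limma called Ttr, Enpp2, Kl and Kcnj13 higher in the adult and Kcne2, Otx2 and Calml4 higher at E16.5.

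Differences were tested with limma on log2(FPKM + 1), adult minus E16.5, with Benjamini-Hochberg adjustment over all 11601 genes and a threshold of 0.05. On this scale the change of a low gene is understated. Of the 9 genes, 7 passed the filter on low values, while Aldh1a1 and Aldh1a2 lay below it and were not tested. By this test 1 of the 7, Crabp2, was higher at E16.5 and none was higher in the adult. At an unadjusted limma p below 0.05, 4 of the 7 passed, of which 1, Stra6, was higher in the adult. Over all genes tested, 8.83% were called higher at E16.5 and 2.12% higher in the adult, and 31.3% had an unadjusted p below 0.05. The median log2 change of the 7 was −1.16, beside −0.86 for all genes. In 1 gene, Stra6, every adult sample was above every E16.5 sample, and in 3, Rbp4, Crabp2 and Rara, every adult sample was below. Over all genes tested these patterns were seen in 7.39% and 31.0%, or 38.4% with no overlap in either direction. Of the 7 tested members 2, Rbp4 and Crabp2, were listed at 0 in every adult sample, as were 6.46% of all genes tested. With 3 samples against 3, an exact permutation test cannot go below p = 0.1. Any gene whose ranges do not overlap gives that smallest value, so for these 4 genes the test adds nothing to the lack of overlap.

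**Figure D1:**
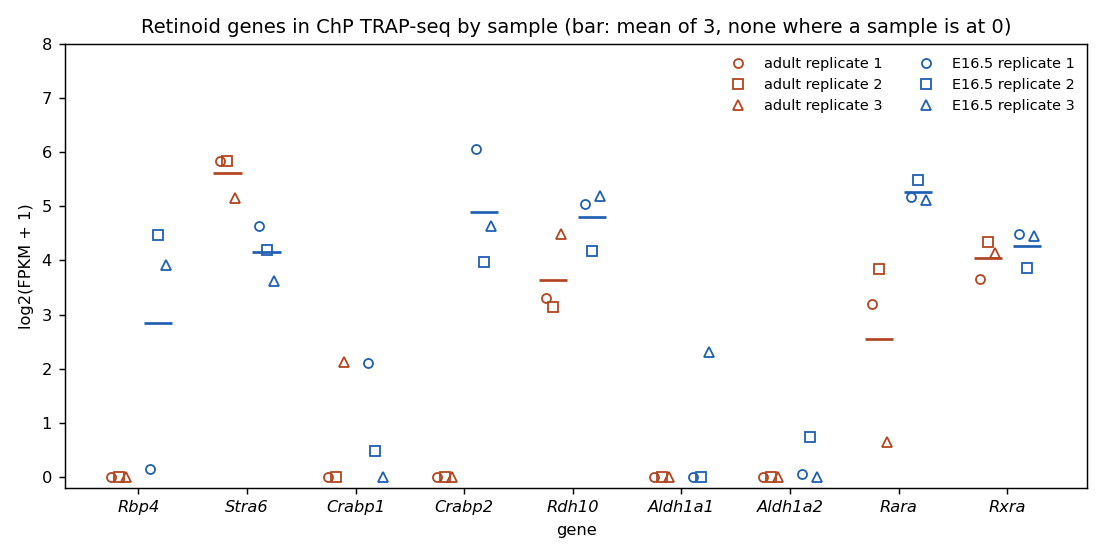
Level of each of the 9 genes on the log2(FPKM + 1) scale (vertical axis), with 1 point per sample, adult in red and E16.5 in blue, and a bar for the mean of 3 where no sample was listed at 0. Stra6 is the gene in which all adult points lie above all E16.5 points, and Crabp2 lies at 0 in the 3 adult samples and at 14.7 to 65.9 FPKM at E16.5.

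The carrier Rbp4 (chr19:38116629-38125281, minus strand, mm10) was listed at 0 in all 3 adult samples. At E16.5 it was at 0.110, 21.1 and 14.2 FPKM. Replicate 1 at E16.5 therefore lay close to the adult samples and far below the other E16.5 samples. The difference was not called by limma (adjusted p = 0.137). The transcript has no 50-base stretch in common with another gene. Rbp2, an intracellular retinol carrier best known from the intestine, was at 0, 8.66 and 0 FPKM in the adult and at 29.2, 13.5 and 1.59 FPKM at E16.5, and its ranges overlapped. Rbp3 and Rbp7 were listed at 0 in all 6 samples. Ttr, given above, was called higher in the adult by limma (adjusted p = 3.41e-07), with the E16.5 samples all listed at 0.

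Stra6 (chr9:58063788-58153996, plus strand), the membrane receptor through which retinol is taken up from Rbp4, was the highest of the 9 genes in the adult. It was at 56.5, 55.8 and 34.6 FPKM there and at 23.8, 17.3 and 11.4 FPKM at E16.5. All 3 adult samples were above all 3 E16.5 samples, and the means with SD (n = 3 each) were 49.0 ± 12.5 FPKM in adult samples and 17.5 ± 6.21 FPKM in E16.5 samples, a 2.80-fold higher level in the adult. The log2 change was 1.46 ± 0.42 (SE), with a 95% interval from 0.47 to 2.44, and lay 2.31 above the median of all genes. It was not called at the 0.05 threshold by limma (adjusted p = 0.0660). It was called by limma with median-ratio scaling (adjusted p = 0.0421), quantile normalization (0.0376), sample weights (0.0474) or without adult replicate 3 (0.0344). Its adjusted p ranged from 0.0344 to 0.283 over 18 alternatives. When all samples were scaled to the same sum, the change was 0.66 and the ranges overlapped. Stra6 ranked above 90.9% of the genes above 0 in adult replicate 1, above 90.5% in replicate 2 and above 74.3% in replicate 3. At E16.5 it ranked above 73.3%, 63.8% and 54.6%.

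The other uptake genes went the other way in value. Lrp2 (megalin), an endocytic receptor, was listed at 0 in all adult samples and was at 3.64, 2.03 and 3.53 FPKM at E16.5. It was not called by limma, with an adjusted p just above the threshold (0.0541), and was called under 5 of 17 alternatives. Scarb1, a lipid receptor that also takes up carotenoids, was at 2.31, 3.91 and 0.328 FPKM in the adult and at 14.1, 8.08 and 9.65 FPKM at E16.5. Its ranges did not overlap and it was not called by limma (adjusted p = 0.107). Stra6l, a relative of Stra6, was at most 0.351 FPKM in any sample.

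Crabp2 (chr3:87948666-87953376, plus strand), which carries retinoic acid to its nuclear receptors, was listed at 0 in all 3 adult samples. At E16.5 it was at 65.9, 14.7 and 23.7 FPKM. The groups did not overlap, although the E16.5 samples differed widely among themselves. The difference was called by limma (adjusted p = 0.0108), which here compares expressed values with listed zeros, so no fold is given. On the estimated value of 1 read, the E16.5 values stood for about 598, 169 and 254 reads. The call was lost at a threshold of 0.01, and it was lost without any 1 of the E16.5 samples (adjusted p by limma 0.0587 without replicate 1, 0.0574 without replicate 2 and 0.0617 without replicate 3). Leaving out any 1 E16.5 sample also removed most calls higher at E16.5 over all genes. The adjusted p of Crabp2 ranged from 0.00418 to 0.0617 over 18 alternatives. At E16.5 Crabp2 ranked above 90.9%, 59.3% and 73.4% of the genes above 0.

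Markers of some other cell types were, like Crabp2, higher in sum at E16.5, and their part in the difference of Crabp2 was not tested. In bulk samples fewer cells of a type and less RNA per cell cannot be told apart. The 9 listed neuronal and progenitor markers, led by Map2 and Tubb3, summed to 132, 20.5 and 25.0 FPKM in E16.5 replicates 1 to 3, and to between 0 and 5.22 FPKM in the adult. Tubb3, a neuronal tubulin, was at 36.2, 0.623 and 0.134 FPKM at E16.5, so the sample with the highest Crabp2 also had the highest neuronal markers. Map2, a neuronal microtubule protein, was at 0, 4.53 and 1.12 FPKM in the adult and at 39.0, 14.9 and 18.7 FPKM at E16.5. Its E16.5 values held the order of Crabp2, and it was called higher at E16.5 by limma (adjusted p = 0.0405). Over E16.5 replicates 1 to 3, Pax6 (11.5, 0.207 and 3.98 FPKM) and Sox1 (3.07, 0.0824 and 2.16 FPKM) held that order too. Tubb3 did not, nor did Dcx (8.32, 0.598 and 0.00772 FPKM), Hes5 (1.64, 0.945 and 0 FPKM) and Snap25 (6.15, 3.16 and 0 FPKM). Stmn2 and Neurod1 were above 0 in replicate 1 alone among the E16.5 samples. Map2 was the highest of the 9 markers in each E16.5 sample, so it weighed most in their sum. The 10 mesenchymal markers, led by Pdgfra and Dcn, summed to 65.7 to 72.8 FPKM at E16.5 and to 15.7 to 30.6 FPKM in the adult. The neuronal sum thus varied more among the E16.5 samples than the mesenchymal sum did, but single mesenchymal markers differed. In E16.5 replicates 1 to 3 Dcn was at 24.6, 12.8 and 14.3 FPKM, in the order of Crabp2. Pdgfra was at 18.4, 34.9 and 29.7 FPKM there, in the reverse order. Of the mesenchymal markers, 3 were at 0 in every adult sample, and 1 of 8 tested, Pdgfra, was called higher at E16.5. Of the tested markers of other lists, 1 of 6 neuronal, 2 of 3 red blood cell and 5 of 7 motile cilia markers were called higher at E16.5. None of the endothelial, macrophage, or oligodendrocyte and astrocyte markers was called. Over all genes tested the share called higher at E16.5 was 8.83%. The 5 red blood cell markers, led by Hbb-bs and Hba-a2, summed to 324, 54.1 and 108 FPKM in E16.5 replicates 1 to 3. That is the order of Crabp2. The neuronal sum and the sum of the macrophage markers below (8.48, 0.584 and 7.14 FPKM) held it too, and the sums of the other lists did not. Few orders are possible with 3 samples, so a shared order says little. In the adult the red blood cell sum was 0 to 6.49 FPKM. The 8 endothelial markers, led by Kdr and Cldn5, summed to 12.3 to 40.9 FPKM at E16.5 and to 0.489 to 27.2 FPKM in the adult, and the 8 macrophage markers, led by C1qa and Csf1r, summed to at most 8.48 FPKM in any sample. The 7 oligodendrocyte and astrocyte markers, led by Mbp and Aldh1l1, summed to 73.0 FPKM in adult replicate 3 and to between 4.59 and 13.5 FPKM in the other 5 samples. The 8 motile cilia markers, led by Rsph1 and Tekt1, summed to 1061 to 1259 FPKM at E16.5 and to 220 to 432 FPKM in the adult. Among the E16.5 samples, replicate 1 held the highest neuronal, red blood cell, mesenchymal and macrophage sums. The highest endothelial, oligodendrocyte and astrocyte, and motile cilia sums lay in the other E16.5 replicates.

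The 3 genes tested whose pattern over the 6 samples was closest to that of Crabp2 were Pnck, Rps27a and Nudt1, by Euclidean distance between mean-centred log2(FPKM + 1) values (0.63, 0.80 and 0.86). Rps27a, a ribosomal protein and ubiquitin gene, was listed at 0 in all adult samples, and at 36.3, 10.0 and 22.7 FPKM at E16.5. The same 0-and-above pattern was held by 4.32% of all genes tested, and by 6 of the 83 ribosomal protein genes. Whether the adult zeros of Crabp2 and Rps27a have the same cause was not tested.

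Crabp1 (chr9:54764748-54773110, plus strand), the related binding protein, stayed near the limit of detection. It was at 0, 0 and 3.37 FPKM in the adult and at 3.29, 0.391 and 0 FPKM at E16.5. A value of 3.29 FPKM at E16.5 stood for about 25 reads, and 3.37 FPKM in adult replicate 3 for about 6 reads. The groups overlapped, and the change was not called by limma (adjusted p = 0.915, 95% interval of the log2 change −2.13 to 1.83). Its sign depended on the setting. The coding starts of both genes are shown because a 50-base read must tell them apart. They are the 60 bases from the start codon, 5′ to 3′ on the plus strand of mm10, with the bases that differ in capitals.
Crabp1, chr9:54764902-54764961: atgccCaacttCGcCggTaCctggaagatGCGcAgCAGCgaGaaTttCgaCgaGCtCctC
Crabp2, chr3:87948841-87948900: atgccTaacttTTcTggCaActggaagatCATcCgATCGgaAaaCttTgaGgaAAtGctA

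In these stretches 22 of 60 bases differed. Over the whole coding sequence, 291 of 414 aligned positions (70.3%) were identical, and the longest stretch that the transcripts share is 11 bases, so no 50-base read matches both transcripts exactly. Fabp5, another carrier of retinoic acid, was at 2.76 FPKM in E16.5 replicate 1 and listed at 0 in the other 5 samples.

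Rdh10 (chr1:16105774-16133734, plus strand), the dehydrogenase that makes retinaldehyde in embryos, was at 8.90, 7.81 and 21.4 FPKM in the adult and at 32.0, 17.0 and 35.6 FPKM at E16.5. Adult replicate 3 lay within the E16.5 range, so the groups overlapped. Means with SD (n = 3 each) were 12.7 ± 7.53 FPKM in adult samples and 28.2 ± 9.88 FPKM in E16.5 samples. The log2 change was −1.16 ± 0.54 (SE), only 0.30 below the median of all genes, and was not called by limma (adjusted p = 0.187). When samples were scaled to the same sum it was called by limma (adjusted p = 0.0388).

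Of 19 listed enzymes that oxidise or reduce retinoids, Rdh10 included, 7 were listed at 0 in every sample and 9 were tested. Rdh5 was the 1 gene called of these 9, beside 10.9% of all genes tested in either direction, and it was higher in the adult. Rdh5, an oxidoreductase known for its part in the visual cycle, was at 125, 126 and 206 FPKM in the adult and at 18.1, 12.7 and 18.9 FPKM at E16.5. Every adult sample was above every E16.5 sample. The mean was 9.21-fold higher in the adult, with a log2 change of 3.11 ± 0.35 (SE), 3.96 above the median of all genes (limma adjusted p = 0.00464). The call was lost without E16.5 replicate 2 (limma adjusted p = 0.0556), as were most calls higher in the adult over all genes. Exons of Rdh5 overlap those of Bloc1s1 on the same strand, and 29.8% of the 50-base stretches of its transcripts occur in another gene. Bloc1s1 was at 206, 87.5 and 297 FPKM in the adult and at 247, 456 and 379 FPKM at E16.5, with a lower mean in the adult, the opposite direction to Rdh5, and was not called by limma (adjusted p = 0.193).

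Dhrs3, which reduces retinaldehyde back to retinol, was at 119, 108 and 58.7 FPKM in the adult and at 44.3, 56.6 and 34.5 FPKM at E16.5. Every adult sample was above every E16.5 sample, with a mean 2.11-fold higher, but the change was not called by limma (adjusted p = 0.117). It was called without adult replicate 3 (limma adjusted p = 0.0328). Adh5, a broad alcohol and formaldehyde dehydrogenase, was at 26.4, 28.6 and 84.5 FPKM in the adult and at 123, 130 and 123 FPKM at E16.5 (limma adjusted p = 0.0638). Within each library, a ratio of genes does not depend on the scaling of that library. The ratio given here was chosen after the values were seen and was not tested. The ratio of Rdh5 to Rdh10 was 14.1, 16.1 and 9.64 in the adult samples and 0.565, 0.745 and 0.530 at E16.5. It did not overlap between the ages.

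The enzymes of the last step, Aldh1a1 (chr19:20492715-20643465, plus strand) and Aldh1a2 (chr9:71215789-71296243, plus strand), were low or at 0 at both ages. Aldh1a1 was at 3.93 FPKM in E16.5 replicate 3, which stood for about 124 reads, and listed at 0 in the other 5 samples. Aldh1a2, the main retinoic acid synthase of early embryos, was at 0.0387, 0.674 and 0 FPKM at E16.5 and listed at 0 in all adult samples. The highest of these Aldh1a2 values stood for about 22 reads. Of the transcripts of Aldh1a1, 6.06% of 50-base stretches are shared with Aldh1a7, which was listed at 0 in all samples. Aldh1a3, a further synthase, was at 0.954 FPKM in E16.5 replicate 3 and at 0 in the other 5 samples. None of the 5 listed genes of this step passed the filter. Without the filter, limma did not call Aldh1a1, Aldh1a2 or Aldh1a3 (adjusted p = 0.477 for each). The breakdown enzymes were as low. Cyp26a1 and Cyp26c1 were listed at 0 in all 6 samples. Cyp26b1 was at 0, 0.0250 and 0 FPKM in the adult and at 0.319, 1.36 and 2.23 FPKM at E16.5. These E16.5 values of Cyp26b1 stood for about 17.0, 91.9 and 140.5 reads.

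Rara (chr11:98927818-98974942, plus strand), retinoic acid receptor alpha, was at 8.11, 13.4 and 0.558 FPKM in the adult and at 35.3, 44.0 and 33.7 FPKM at E16.5. All adult samples were below all E16.5 samples, and adult replicate 3, which had the shallowest library, was far below the other adult samples. The value of 0.558 FPKM stood for about 5.5 reads. Means with SD (n = 3 each) were 7.34 ± 6.43 FPKM in adult samples and 37.7 ± 5.55 FPKM in E16.5 samples, 5.13-fold higher at E16.5. The log2 change was −2.71 ± 0.82 (SE), with a 95% interval from −4.63 to −0.79, and lay 1.85 below the median of all genes. It was not called by limma (adjusted p = 0.0746). It was called by limma with sample weights (adjusted p = 0.0437), with the same sum in all samples (0.0211), without adult replicate 2 (0.0419) or without adult replicate 3 (0.0281). Over 18 alternatives its adjusted p ranged from 0.0211 to 0.228.

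Rxra (chr2:27676440-27762957, plus strand), the partner receptor, was at 11.6, 19.3 and 16.6 FPKM in the adult and at 21.5, 13.5 and 20.8 FPKM at E16.5. The groups overlapped, and the log2 change was −0.22 ± 0.44 (SE) with a 95% interval from −1.24 to 0.81 (limma adjusted p = 0.758). Against the median of all genes it was 0.64 higher, and its sign turned under median-ratio scaling (0.10) and quantile normalization (0.33). The ratio of Rara to Rxra within a library was 0.696, 0.691 and 0.0337 in the adult and 1.64, 3.27 and 1.62 at E16.5, so the receptor with the higher level was Rxra in every adult sample and Rara in every E16.5 sample. That ratio was also chosen after its values were seen.

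Of the other receptors, Rxrb was at 8.22, 15.2 and 31.7 FPKM in the adult and at 28.2, 9.76 and 22.8 FPKM at E16.5, and Ppard, a fatty acid receptor that has been reported to bind retinoic acid, was at 3.81, 5.27 and 6.39 FPKM in the adult and at 11.5, 14.4 and 5.60 FPKM at E16.5. Their ranges overlapped and neither was called by limma (adjusted p = 0.844 and 0.366). Rarb, Rarg and Rxrg had a mean below 1 FPKM and were not tested. Rarb was highest in E16.5 replicate 1, at 1.83 FPKM, but 46.0% of the 50-base stretches of its transcripts are shared with Top2b and Gm48162 on the opposite strand, and strand use in the counting is not given in the sources used here.

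In the order of means, Stra6 stood at the top in the adult, above Rxra (15.8 ± 3.89 FPKM, SD, n = 3), Rdh10 and Rara, and its range did not overlap that of Rxra. The ranges of Rxra and Rdh10 overlapped, as did those of Rdh10 and Rara. At E16.5 the order was Rara, Crabp2, Rdh10, Rxra, Stra6 and Rbp4, and each of these overlapped its neighbour. Thus Stra6 in the adult was the only gene whose place above its neighbour was larger than the spread between replicates, among the genes that were above 0 in every sample of the group. In numbers of genes above 0, the adult samples held 4, 4 and 5 of the 9, and the E16.5 samples 8, 8 and 7. Over the whole table the share of genes above 0 was also lower in the adult, at 39.0%, 46.6% and 31.2%, beside 53.7%, 52.4% and 52.6% at E16.5.

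**Figure D2:**
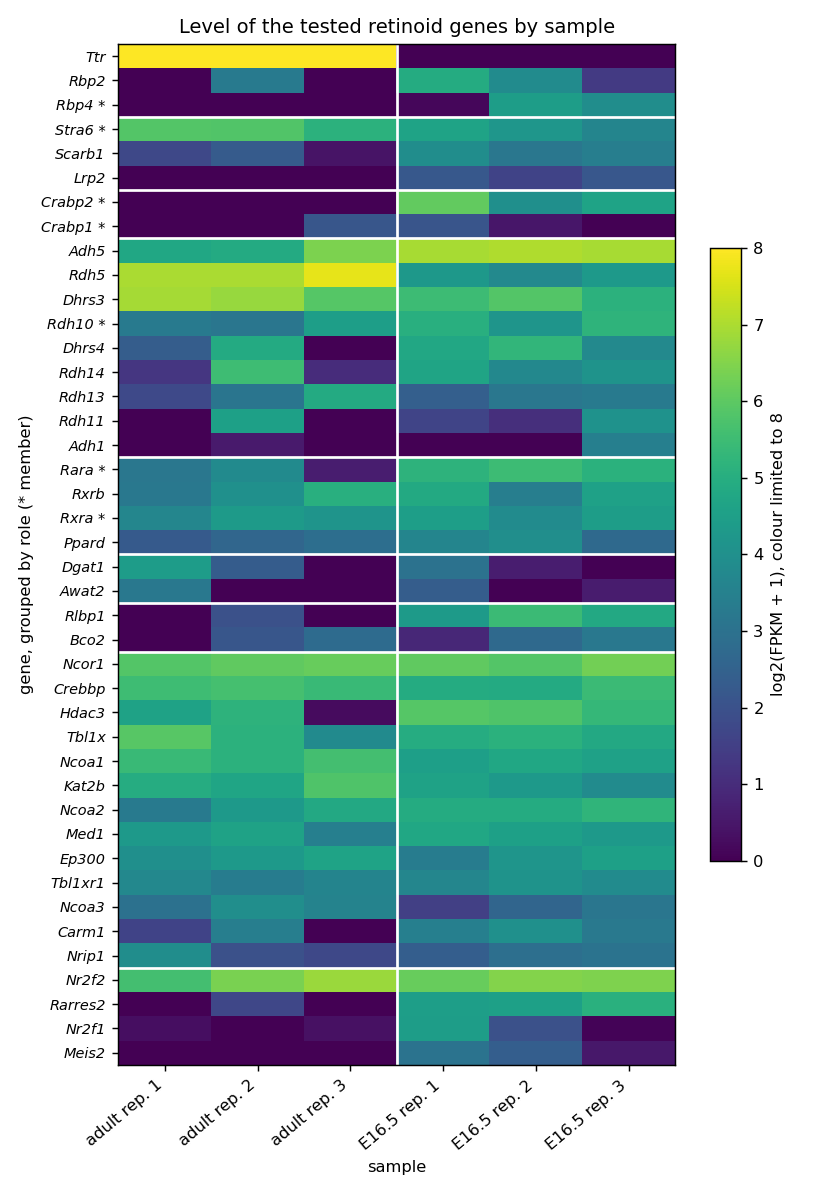
Level of 42 tested genes of the retinoid pathway (rows, grouped by role from carriers at the top to target genes at the bottom, with members marked by an asterisk) in the 6 samples (columns), coloured by log2(FPKM + 1) up to 8. The coregulators Ncor1 and Crebbp hold similar colours in all samples, whereas Rdh5 and Ttr are brighter in the adult columns and Crabp2, Rlbp1 and Rarres2 are dark there.

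The wider pathway was described from a list of 73 further genes, all in the table, of which 21 were listed at 0 in every sample and 37 passed the filter. Of these 37, 2 were called higher in the adult (Ttr and Rdh5) and 2 higher at E16.5 (Rlbp1 and Rarres2), and 33 were not called. These are 4 of 37, beside 10.9% of all genes tested in either direction. Their median log2 change was −0.42, beside −0.86 for all genes. By role, 0 of 14 coregulators were called by limma, with 0 at an unadjusted p below 0.05, and 0 of 4 tested receptors, members included, with 1, Rara, at an unadjusted p below 0.05.

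Rlbp1, which binds retinaldehyde in the retina, was at 0, 2.94 and 0 FPKM in the adult and at 19.3, 43.2 and 27.6 FPKM at E16.5 (limma adjusted p = 0.0199). Rarres2, the gene of the secreted protein chemerin that was found as a retinoid-responsive gene, was at 0, 2.23 and 0 FPKM in the adult and at 21.2, 22.6 and 32.6 FPKM at E16.5 (limma adjusted p = 0.0165). In both genes adult replicate 2, the deepest adult library, was the only adult sample above 0. Both calls were lost without any 1 of the E16.5 samples, with limma adjusted p between 0.0777 and 0.0935, and at a threshold of 0.01. Most calls higher at E16.5 over all genes were lost under these settings too. With a pseudocount of 0.01 the limma adjusted p was 0.0939 for Rlbp1 and 0.0884 for Rarres2. Of the 50-base stretches of Rarres2, 22.3% are shared with Lrrc61 on the opposite strand. Lrrc61 was at 9.58, 5.45 and 0 FPKM in the adult and at 12.0, 7.23 and 3.27 FPKM at E16.5, below Rarres2 in each E16.5 sample.

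The coregulators repress or activate genes together with the receptors. Ncor1, a corepressor, was at 57.4, 65.2 and 70.2 FPKM in the adult and at 64.9, 57.5 and 77.3 FPKM at E16.5. Crebbp, an acetyltransferase coactivator, was at 44.3, 49.3 and 41.9 FPKM in the adult and at 29.2, 28.7 and 42.9 FPKM at E16.5. Both overlapped between the ages, and the 95% interval of the log2 change was −0.71 to 0.62 for Ncor1. The median log2 change of the 14 coregulators was −0.02. Others differed more in value, and 4 of the 14 had ranges that did not overlap, beside 38.4% of all genes tested. Ncoa1 and Kat2b, both coactivators, were above in every adult sample, with means 1.75-fold and 1.97-fold higher in the adult. Ncoa2, a coactivator, and Hdac3, a deacetylase of the corepressor complex, were below in every adult sample, with means 1.75-fold and 2.59-fold higher at E16.5. None of these 4 was called by limma (adjusted p = 0.167, 0.211, 0.243 and 0.221).

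Target genes varied. Nr2f2, a nuclear receptor that responds to retinoic acid, was at 48.1, 82.1 and 110 FPKM in the adult and at 69.7, 89.9 and 86.3 FPKM at E16.5, with overlapping ranges. Nr2f1, its relative, was at 0.229, 0 and 0.293 FPKM in the adult and at 21.0, 2.98 and 0.0608 FPKM at E16.5, highest in the sample with the highest neuronal markers. Of 13 listed targets, 6 were listed at 0 in every sample. The storage genes were uneven between replicates of 1 age. Dgat1, which can esterify retinol, was at 20.2, 4.07 and 0 FPKM in the adult and at 7.08, 0.570 and 0 FPKM at E16.5. Awat2, a wax and retinyl ester synthase, was at 8.30, 0 and 0 FPKM in the adult and at 4.11, 0 and 0.527 FPKM at E16.5. Lpl, the lipoprotein lipase, was above 0 in adult replicate 2 alone (2.52 FPKM). Lrat, the main retinol esterifying enzyme, was listed at 0 in all 6 samples. Bco2, which cleaves carotenoids, was at 0, 3.43 and 5.93 FPKM in the adult and at 0.851, 5.60 and 8.29 FPKM at E16.5. Bco1, its relative, was at 2.11 FPKM or less.

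**Figure D3:**
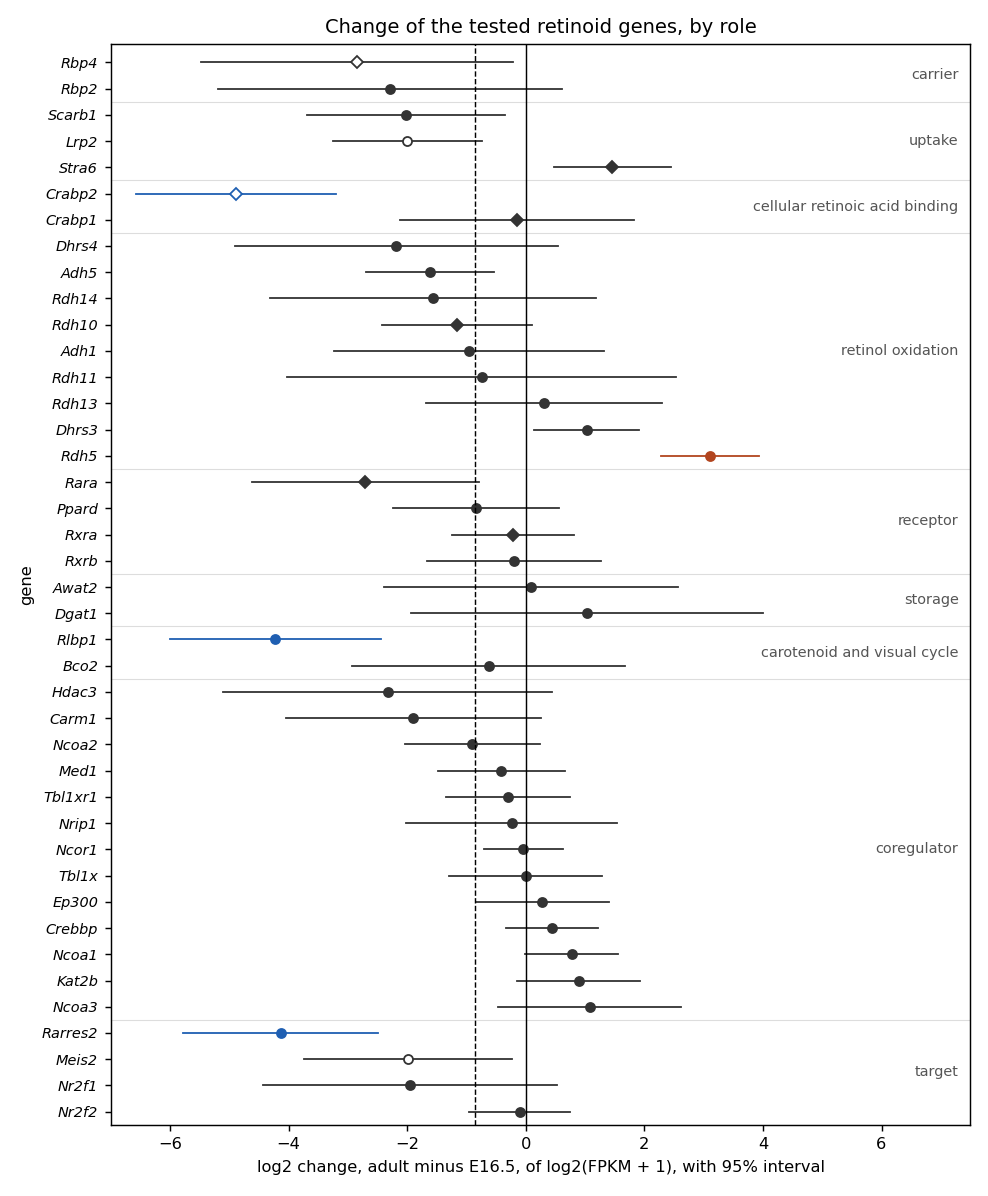
Log2 change from E16.5 to adult (horizontal axis, adult minus E16.5 on log2(FPKM + 1), line: 95% interval) of the tested genes by role, with members as diamonds, other genes as circles, open symbols for genes at 0 in every sample of 1 age, blue or red for genes called by limma, and a dashed line at the median of all genes, −0.86. Ttr is left out. Crabp2, Rlbp1 and Rarres2 are the called genes at the left and Rdh5 the called gene at the right, while the intervals of Rxra and Rdh10 take in both 0 and the dashed line.

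Retinoic acid receptors bind pairs of a hexamer in direct repeat. Promoter windows from 250 bases before to 50 bases after each gene start (RefSeq, GRCm38.p6) were searched on both strands for 2 hexamers, each either AGGTCA or AGTTCA or GGGTCA or GGTTCA, with 1, 2 or 5 bases between them. A match is a description of letters, not a site. The 16 windows of 7 of the 9 genes held none, and Rdh10 and Crabp2 were not in the table of promoters. Of all 32851 windows, 0.588% held at least 1 match. Among 69 windows of 54 of the pathway genes 3 matched, those of Rarb, Cyp26a1 and Bco1. The repeats with a spacing of 5, seen in 0.097% of all windows, are printed because both genes are textbook targets of retinoic acid. They are shown 5′ to 3′ in the direction of the gene, with both hexamers and the bases between them in capitals.
Rarb, chr14:16575493-16575549, minus strand: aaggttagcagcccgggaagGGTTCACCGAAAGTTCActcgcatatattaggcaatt
Cyp26a1, chr19:37697756-37697812, plus strand: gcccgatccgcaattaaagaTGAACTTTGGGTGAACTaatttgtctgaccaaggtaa

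The repeat of Rarb starts 53 bases before the gene start. In Cyp26a1 the hexamers lie on the opposite strand, as printed, and the repeat starts 32 bases before the gene start. In these libraries Cyp26a1 was listed at 0 in all samples. Rarb was at 0.103, 0 and 0 FPKM in the adult and at 1.83, 0 and 0.191 FPKM at E16.5.

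**Figure D4:**
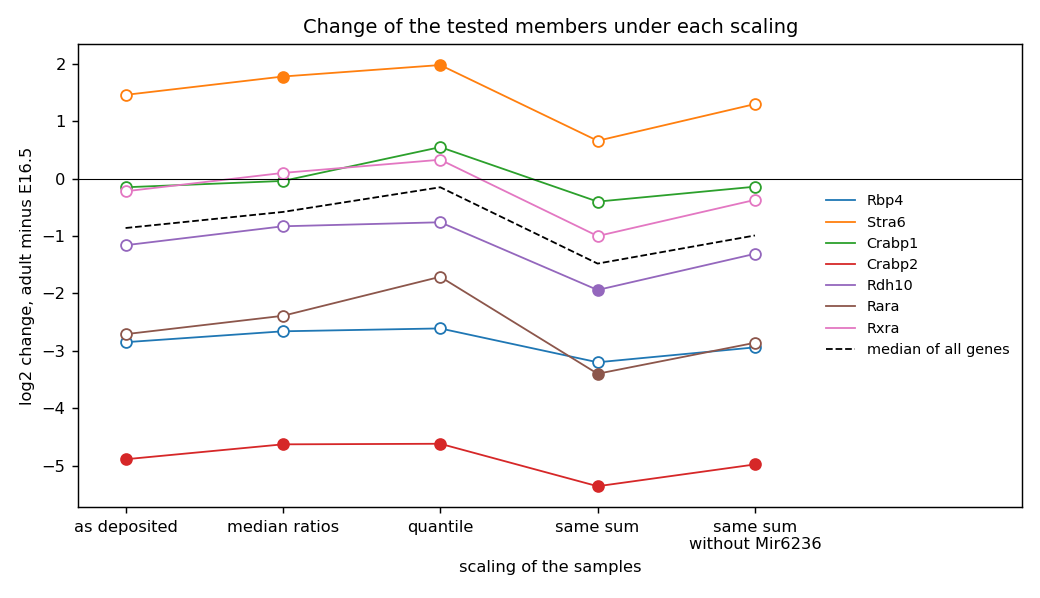
Log2 change (vertical axis, adult minus E16.5) of the 7 tested members under 5 scalings of the samples (horizontal axis), with filled points called by limma at 0.05, open points not called, and the median of all genes as a dashed line. Crabp2 is called under all 5 and Stra6 stays above 0 under all 5, while Rxra and Crabp1 cross 0.

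The choice of scaling moved the members by unequal amounts. The median log2 change of all genes was −0.58 with median ratios, −0.15 after quantile normalization, −1.48 with the same sum and −0.99 with the same sum without Mir6236. Stra6 lay above that median and Rara, Rbp4 and Crabp2 below it under each of these scalings, and Crabp2 was called by limma under each. Stra6 was called by limma under median ratios and quantile normalization but not with the same sum (log2 change 0.66, adjusted p = 0.283).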

How the data were processed

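TRAP-seq RNA of ChP was compared between 3 adult and 3 E16.5 samples, grouped by their labels. The deposited table holds FPKM per gene. Per the labels and the study's methods, the authors aligned 50-base single-end reads to mm10 with STAR 2.4.0 and made the FPKM with Cufflinks tools. The annotation is not given in the sources used here, and read counts were not analysed here. Because the unit is FPKM and not counts, limma 3.58.1 (R 4.3.3, empirical Bayes with a mean trend) was run on log2(FPKM + 1) for genes with a mean above 1 FPKM, adult minus E16.5, with Benjamini-Hochberg adjustment and a threshold of 0.05. The test was also run on simulated data with equal and with unequal spread of the groups, and its outcome is not given here. Over the genes tested, the median SD of log2(FPKM + 1) was 0.98 in the adult and 0.45 at E16.5. The fit used 1 variance per gene for both groups. Exact permutation tests were two-sided (scipy 1.17.1). Coordinates and transcripts were from GENCODE M21 (mm10).

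The members and lists were chosen with earlier results of these data known. Named were all members, the pathway genes called, up to 3 pathway genes of highest mean per role, the 3 genes of nearest pattern to a called member, and the 2 highest markers of each list. Other genes of the list that are named, the genes overlapping Rdh5 and Rarres2, the ratios and the ribosomal protein check were added after the values were seen. The value of 1 read was estimated from the step between low values, with an effective length 200 bases under that of the longest coding transcript, and between 66.7% and 90.5% of the low values fell within 0.1 of a whole read, so reads are approximate. The depth limits low genes more in the adult samples. Alternatives in scaling, pseudocount, filter, model and samples were run. Some genes of the lists are counted but not reported here by name or drawn.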

Additional observations from a re-analysis of the deposited data

How the results depend on the processing

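Each result was recomputed under up to 18 alternatives. Groups of 3 do not allow a test for outlying samples, and listed zeros limit every result in which a gene was at 0 in 1 age.

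Over all genes, 246 were called higher in the adult and 1024 higher at E16.5. Median ratios gave 348 and 660, the same sum 119 and 3238, quantile normalization 466 and 449, no trend 158 and 949, and a threshold of 0.01 left 56 and 132. Leaving out 1 sample gave 27 to 357 higher in the adult and 16 to 1704 higher at E16.5, and the lowest counts came without E16.5 replicates 1, 2 or 3 (32 and 25, 27 and 16, 47 and 65). The cause was not tested. With the replicate number as a block, 112 and 452 were called. Same-numbered samples had deviations from their group means that correlated at 0.001, 0.044 and 0.015, so the numbers were not taken to pair the samples, and adult replicate 1 correlated best with E16.5 replicate 3 (0.005). With the block 0 members were higher in the adult and 1 at E16.5, and 2 and 2 pathway genes.

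Of the members, 0 were called higher in the adult and 1 higher at E16.5. With median ratios or quantile normalization 1 was higher in the adult, with the same sum 3 were higher at E16.5, with sample weights 1 was higher in the adult and 2 at E16.5, and at a threshold of 0.01 there were 0 at E16.5. Without 1 sample, 0 to 1 members were higher in the adult and 0 to 2 at E16.5. With the same sum, 0 members had every adult sample above every E16.5 sample, where 1 had at the deposited scale. Of the pathway genes, 2 and 2 were called. With the same sum 6 were higher at E16.5, and at a threshold of 0.01 there were 0. Without 1 sample, 1 to 3 were higher in the adult and 0 to 4 at E16.5.

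Signs turned only for genes not called under either setting. Under median ratios the log2 change became 0.10 for Rxra, 0.12 for Rxrb, 0.29 for Ncor1 and 0.24 for Nr2f2. After quantile normalization it became 0.55 for Crabp1, 0.33 for Rxra, 0.17 for Bco2, 0.32 for Rxrb, 0.37 for Ncor1 and 0.32 for Nr2f2. With the same sum it became −0.26 for Awat2 and −0.37 for Crebbp. Awat2 was −0.55 and −1.58 with pseudocounts of 0.1 and 0.01. Without 1 sample the log2 change ranged from −0.58 to 0.20 for Crabp1, turning without adult replicates 1 or 2, from −0.05 to 2.15 for Dgat1, turning without adult replicate 1, and from −1.32 to 0.19 for Bco2 and −0.14 to 0.07 for Ncor1. It ranged from −0.68 to 0.23 for Rxrb, from −0.41 to 0.77 for Awat2, and turned to 0.22 for Nr2f2 without adult replicate 1.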
